A study of Sus scrofa with 36 samples.

Results

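Red-cell transcripts were followed in subcutaneous fat through HBB, which encodes the beta chain of adult haemoglobin, and ALAS2, which encodes the erythroid form of the enzyme that starts haem synthesis. These 2 genes of the 12253 in the deposited table were chosen by symbol, HBB as ENSSSCG00000014725 and ALAS2 as ENSSSCG00000012347, and both were present in every pig. RNA-Seq was made from subcutaneous adipose tissue of 36 pigs from an F2 intercross of Duroc and Göttingen minipig, which were ranked by a genetic Obesity Index. The 12 pigs labelled Low were the lean group (7 males and 5 females), the 12 labelled Mean the intermediate group (6 males and 6 females), and the 12 labelled High the obese group (6 males and 6 females). All pigs were animals of the same intercross, and no treatment groups are named in the sources used here. Every library came from 1 pig, and pigs of a group could be full sibs, although which ones is not given in these sources. Slaughter was at a similar weight and the lean pigs were older by then, so age at slaughter and group cannot be told apart.

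Red cells develop in the bone marrow, where the precursors fill with haemoglobin, a tetramer of alpha and beta globin chains that each hold a haem group. ALAS2 joins glycine and succinyl-CoA in the mitochondria of these precursors, the step that sets the pace of haem production for globin, whereas ALAS1 performs the same step in all cells. Mammalian red cells lose their nucleus before or soon after they enter the circulation, but the youngest of them, the reticulocytes, keep mRNA for some days. Adipocytes are not known to make adult haemoglobin, and globin mRNA in a fat sample is therefore commonly read as a sign of blood in the vessels of that sample. In bulk RNA, fewer cells of a type and less RNA per cell cannot be told apart.

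The table held 8735839 to 11755925 reads per pig, recovered from the deposited log2 values, and the normalized counts given here are these reads divided by the size factor of the pig. Fat was well represented, since PLIN1, which coats the lipid droplet of adipocytes, averaged 20986 ± 5258 normalized counts (SD, n = 12) among lean pigs and 20838 ± 5902 (SD, n = 12) among obese pigs. Many other red-cell genes could not be found by symbol. Of 11 globin symbols only HBB was matched in the table. The red-cell markers SLC4A1 and AHSP and the erythroid regulators GATA1 and KLF1 were not matched. Symbols were found for only part of the identifiers, and of 21 adipocyte symbols 12 were matched, without ADIPOQ, FABP4 and LPL. A gene that was not matched may therefore be in the table without a symbol, and its level is not known here. HBB and ALAS2 thus stand for red cells here without most of the named genes that would normally accompany them. The smallest recovered count in any column was 6 or 7 reads, so a gene that was absent from some pigs would not be in the table.

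HBB was among the most variable genes of the fat and differed by 100.1-fold between the lowest and the highest pig, with only a small part of this spread lying between the groups. In the lean pigs the HBB normalized count was 175 in the lowest pig, 1447 at the median and 15658 in the highest (mean 2481 ± 4243, SD, n = 12). In the intermediate pigs it was 295 at the lowest, 1172 at the median and 4557 at the highest (mean 1813 ± 1453, SD, n = 12). In the obese pigs it was 439 at the lowest, 1939 at the median and 17563 at the highest (mean 4568 ± 6155, SD, n = 12). The ranges of the groups overlapped almost completely, with 10 of the 12 obese and 12 of the 12 intermediate pigs inside the range of the lean pigs. Ordered by their medians, the groups ran from intermediate through lean to obese, and no neighbours in that order differed beyond their spread.

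A small set of 3 pigs stood apart at the top. Lean pig 6 had an HBB normalized count of 15658, obese pig 5 of 16927 and obese pig 10 of 17563, while the next highest, obese pig 7, had 6834. Of the reads recovered from the table, HBB took 0.162% in lean pig 6, against 0.0153% in the median pig and 0.00146% in lean pig 4, the lowest. These 3 pigs set much of the group means, since without lean pig 6 the highest lean value was 2959. Both sexes were among them, with lean pig 6 and obese pig 10 female and obese pig 5 male.

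ALAS2 was a far smaller signal with the same order of pigs at the top. In the lean pigs its normalized count was 7.25 at the lowest, 32.4 at the median and 394 at the highest (mean 67.1 ± 107, SD, n = 12). In the intermediate pigs the lowest was 15.3, the median 37.6 and the highest 159 (mean 53.3 ± 42.5, SD, n = 12). In the obese pigs the lowest was 21.0, the median 44.8 and the highest 516 (mean 123 ± 173, SD, n = 12). Again the groups overlapped, and lean pig 6, obese pig 5 (441) and obese pig 10 were the 3 highest. The depth limits ALAS2 at the low end, where 6 pigs had fewer than 20 reads and lean pig 7 had 8, for which the exact 95% Poisson interval is 3.45 to 15.8 reads (counting error only).

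**Figure D1:**
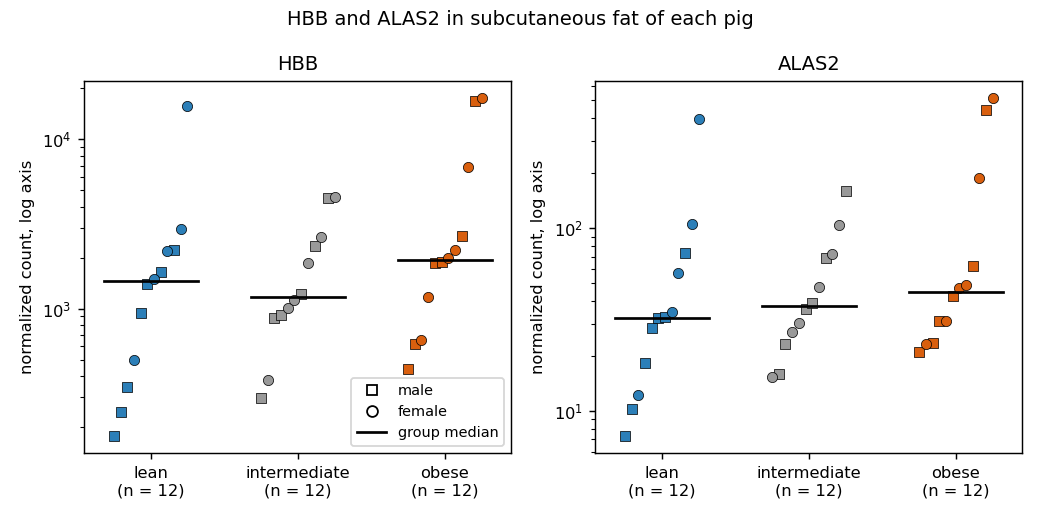
Normalized counts (reads divided by size factor, log axis) of HBB (left) and ALAS2 (right) in the 12 pigs of each group, sorted within the group, with males as squares, females as circles and the group median as a bar. The groups overlap, and lean pig 6, obese pig 5 and obese pig 10 lie above all other pigs for both genes.

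On the log2 scale the SD over all 36 pigs was 1.63 for HBB and 1.43 for ALAS2, against 0.34 for the median gene of the table. HBB ranked 21 and ALAS2 46 of 12253 genes by this SD. Group and sex together explained 13.9% of the variance of HBB and 10.8% of that of ALAS2, and group alone explained 6.62% and 5.61%. The mean level of ALAS2 was low, since only 13.8% of all genes had a lower mean log2 value, whereas 91.8% had a lower mean than HBB. These ranks compare read counts that are not divided by gene length.

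For the question of whether the red-cell signal follows the genetic degree of obesity, obese pigs had higher estimates than lean pigs for both genes, but neither passed the test. HBB was 1.84-fold higher in obese than in lean pigs (log2 difference 0.88, SE 0.61, 95% interval -0.36 to 2.12), with an adjusted p of 0.519 by limma. ALAS2 was 1.67-fold higher (log2 difference 0.74, SE 0.55, 95% interval -0.37 to 1.86), with an adjusted p of 0.555 by limma. Of the obese pigs, 8 of 12 lay above the lean median for HBB and 7 of 12 for ALAS2. Hence 0 of the 2 red-cell genes was called in a comparison that called 5 of all 12253 genes (0.0408%). Before the adjustment p was 0.157 for HBB and 0.185 for ALAS2 by limma. The HBB difference ranged from 0.55 without obese pig 5 to 1.22 without lean pig 6, and that of ALAS2 fell to 0.15 without obese pigs 5 and 10.

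The intermediate pigs lay close to the lean pigs. Their HBB differed from that of lean pigs by 0.12 (SE 0.61, 95% interval -1.12 to 1.36), with an adjusted p of 0.958 by limma, and this sign turned when any of 7 single pigs was left out, lean pigs 3, 4, 7 or 9 or intermediate pigs 2, 5 or 7. For ALAS2 the difference was 0.18 (SE 0.55, 95% interval -0.93 to 1.30), with an adjusted p of 0.918 by limma. Obese pigs differed from intermediate pigs by 0.76 for HBB (SE 0.61, 95% interval -0.47 to 2.00; adjusted p = 0.989 by limma) and by 0.56 for ALAS2 (SE 0.55, 95% interval -0.55 to 1.68; adjusted p = 0.990 by limma). Leaving out obese pigs 5 and 10 brought the last of these to -0.03. Both comparisons called 0 of 12253 genes (0.0%) by limma, with 1535 genes (12.5%) and 524 genes (4.28%) at an unadjusted p below 0.05. These 4 intervals include 0 as well as differences above 1 on the log2 scale.

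Males had lower estimates of both transcripts than females. HBB normalized counts ran from 175 through a median of 1219 to 16927 in the 19 males and from 380 through 1984 to 17563 in the 17 females, with wide overlap. The male minus female difference was -0.87 for HBB (SE 0.50, 95% interval -1.88 to 0.14), with an adjusted p of 0.351 by limma. ALAS2, which is X-linked, differed by -0.65 (SE 0.45, 95% interval -1.56 to 0.27), with an adjusted p of 0.460 by limma. Neither passed, in a comparison that called 268 genes (2.19%). Without lean pig 6 and obese pig 10, both of them females, the HBB difference moved to -0.45.

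By their medians the sexes were furthest apart in the lean group. The median HBB normalized count of the lean males was 938 (175 to 2231, n = 7) and that of the lean females 2179 (499 to 15658, n = 5). In the obese group the medians were 1872 in males (439 to 16927, n = 6) and 2098 in females (650 to 17563, n = 6). The obese minus lean difference was larger in males than in females by 1.33 for HBB (SE 1.23, 95% interval -1.17 to 3.84; adjusted p = 0.663 by limma) and by 1.02 for ALAS2 (SE 1.11, 95% interval -1.23 to 3.27; adjusted p = 0.718 by limma). Neither difference between the sexes passed the test, which called 1 gene (0.00816%). Without lean pig 6 it was 0.64 for HBB and 0.34 for ALAS2.

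**Figure D2:**
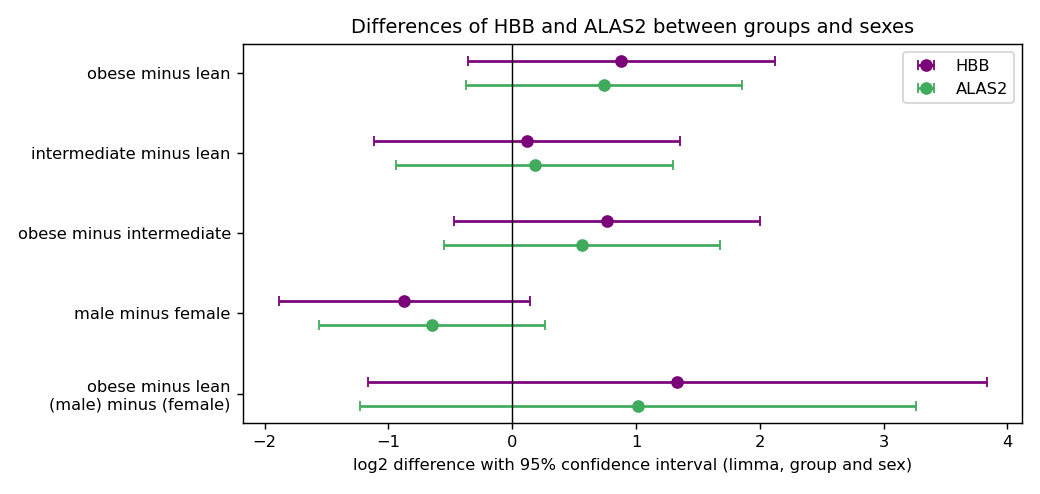
Log2 differences of HBB (purple) and ALAS2 (green) between groups and between sexes, as points with 95% confidence intervals from limma with group and sex as terms, and in the last line the difference between males and females in the obese minus lean contrast. Every interval crosses 0, and HBB and ALAS2 lie side by side in each contrast.

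From pig to pig, HBB and ALAS2 rose and fell together. Over the 36 pigs their log2 values had a Pearson's r of 0.970 and a Spearman's rho of 0.976, each with a permutation p of 2e-05, the smallest that the 100000 resamples can give. Without the 2 pigs farthest from the HBB median, lean pig 6 and obese pig 10, r was 0.959, and without the 3 highest pigs it was 0.948. The relation was as close within the groups, with r of 0.968 in the lean group, 0.966 in the intermediate group and 0.971 in the obese group, and within the sexes, with 0.955 in males and 0.988 in females. Residuals after group and sex gave an r of 0.967.

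The share of one transcript to the other varied less than either of them, with an SD of 0.42 on the log2 scale. A pig had 36.9 HBB reads per ALAS2 read at the median, 17.1 in lean pig 4, where ALAS2 rested on 9 reads, and 61.2 in obese pig 4. The median pig of the lean group had 36.2, that of the intermediate group 35.4 and that of the obese group 38.0. As the reads are not divided by transcript length, this ratio compares pigs and not the amounts of the transcripts. HBB nevertheless spread more widely than ALAS2, with an SD of ALAS2 over that of HBB of 0.88 over all pigs, 0.83 in males and 0.96 in females. The correlation between the sum and the difference of both log2 values, which is 0 when the spreads are equal, was 0.458 (permutation p = 0.0039), and without the 3 highest pigs it was 0.529.

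Apart from ALAS2, 1 gene followed HBB closely. ENSSSCG00000007978, which has no symbol in the tables used here, rose by 0.98 log2 units per log2 unit of HBB (SE 0.03, r = 0.984), with an adjusted p of 1.08e-22 by limma with group and sex as terms. In the same fit ALAS2 rose by 0.87 (SE 0.04), with an adjusted p of 1.96e-17 by limma. These were the only genes called of 12252 tested (0.0163%), and both were called again without the 3 highest pigs. ENSSSCG00000007978 had mean normalized counts of 1668 ± 3385 in the lean group, 1050 ± 848 in the intermediate group and 2608 ± 3422 in the obese group (SD, n = 12 each), and lean pig 6 was the highest with 12292. Like the red-cell genes it was not called between obese and lean pigs (log2 difference 0.88, SE 0.61, adjusted p = 0.520 by limma).

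The next gene by correlation stood well below. FAM171A1, which encodes a membrane protein, had an r of 0.678 with HBB and 0.693 with ALAS2. Its slope was 0.13 on HBB (SE 0.03, adjusted p = 0.0925 by limma) and 0.15 on ALAS2 (SE 0.03, adjusted p = 0.0486 by limma), which made it the third and last gene called on ALAS2 (0.0245% of genes), and it was not called without the 3 highest pigs. Without these 3 pigs its r was 0.628 with HBB and 0.665 with ALAS2. Between its lowest and highest pig FAM171A1 differed by 2.41-fold, against 100.1-fold for HBB. The call on ALAS2 was lost when any of 28 single pigs was left out, that is, all but lean pigs 1, 2 and 5, intermediate pigs 1 and 9 and obese pigs 3, 6 and 11.

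Among the genes after these, WBP1L had an r of 0.580 with HBB, TCN2, which carries vitamin B12 in plasma, 0.548, and ITM2B 0.523. The most opposite were FICD, an enzyme that modifies the chaperone BiP, with -0.574, HGH1 with -0.535 and the immediate early gene IER2 with -0.527. None of these 6 was called on HBB (adjusted p = 0.874 by limma for each). Over the other 12251 genes the middle 95% of correlations with HBB lay between -0.32 and 0.35.

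**Figure D3:**
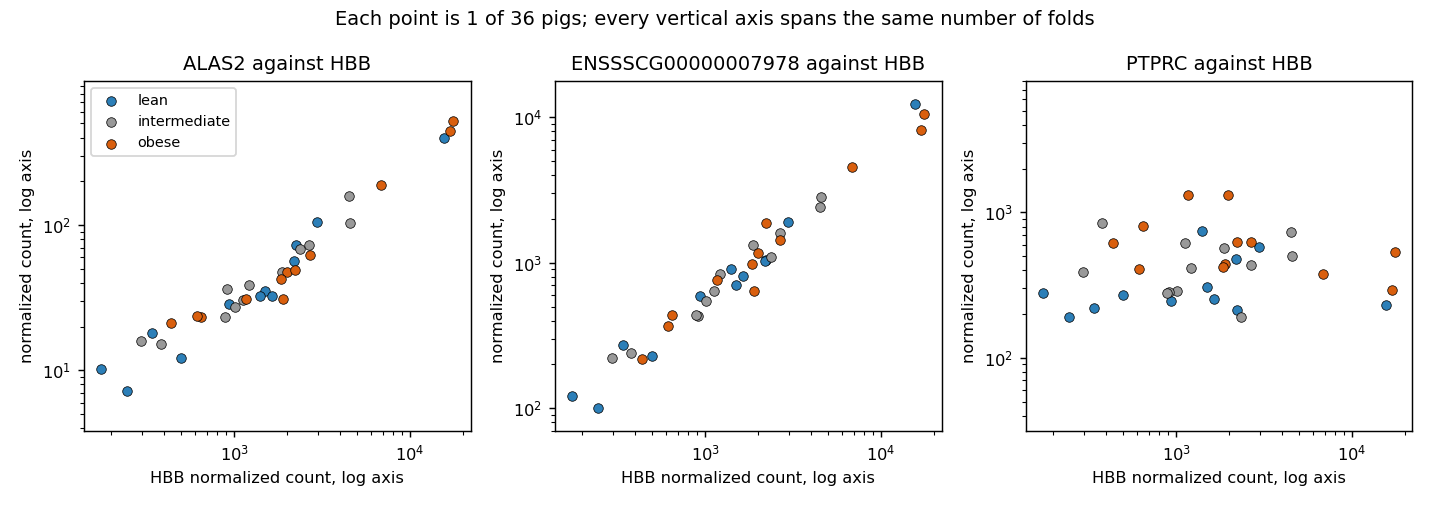
Normalized counts of ALAS2 (left), ENSSSCG00000007978 (middle) and the leukocyte gene PTPRC (right) against HBB in 36 pigs, on log axes that span the same number of folds, coloured by group. ALAS2 and ENSSSCG00000007978 form narrow bands with HBB (r of 0.970 and 0.984), whereas PTPRC shows a wide cloud (r of 0.101).

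For the remaining genes of haem synthesis no relation with HBB was detected. Of the 11 measured besides ALAS2, 4 had an r above 0 and the median was -0.09, against 0.02 over all other genes, and 0 of 11 were called on HBB by limma or reached an unadjusted p below 0.05 (5.53% of all genes). ALAS1, the form found in all cells, had an r of 0.01 with HBB and normalized counts of 476 ± 148 in lean and 490 ± 146 in obese pigs (SD, n = 12 each). Further along the pathway, UROD, which trims the side chains, had an r of -0.19. CPOX, which acts next in the mitochondria, had 0.22, and FECH, which inserts the iron, -0.09. These enzymes serve haem synthesis in all cells, not only in red-cell precursors.

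Genes of the red-cell membrane and cytosol gave a median r of 0.05 over 14 measured genes, 8 of them above 0. KEL, which encodes the Kell blood group protein, had the highest r with 0.292, CAT, or catalase, had 0.267, and the membrane skeleton genes EPB41 and SPTB had 0.171 and -0.004. The lowest were CA2, a carbonic anhydrase, with -0.12 and the hexokinase HK1 with -0.12. Of 4 measured regulators and receptors, the transferrin receptor TFRC had an r of -0.32, the growth factor receptor KIT 0.12, LDB1 0.12 and LMO2 0.02. In both lists 0 genes were called on HBB by limma (0.0163% of all genes) and 0 had an unadjusted p below 0.05 (5.53% of all genes). Most of these genes are also expressed outside red cells.

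Genes that handle iron and haem had a median r of -0.05 over 14 measured genes. The highest were CYBRD1, a ferric reductase, with 0.385 and NCOA4, which delivers ferritin to the lysosome, with 0.297, and the lowest besides TFRC was the iron sensor ACO1 with -0.21. Platelets also come from blood, and the 6 measured platelet genes had a median r of 0.10 with HBB. They were 6 of 23 listed, without the more specific PF4, PPBP and ITGA2B, and SELP and MMRN1 among them are also made by endothelium. PTGS1, which makes the precursor of thromboxane, had an r of 0.410 and the ADP receptor P2RY12 0.230, while SELP, or P-selectin, had -0.13. In both lists 0 genes were called on HBB by limma (0.0163% of all genes) and 0 had an unadjusted p below 0.05 (5.53% of all genes), and CYBRD1 had an adjusted p of 0.879 and PTGS1 of 0.881 by limma. Without the 3 highest pigs 2 of the 6 platelet genes, PTGS1 and ITGB3, and 2 of the 14 iron and haem genes, CP and HPX, had a higher level with HBB at an unadjusted p below 0.05 by limma (4.85% of all genes). ITGB3, CP and HPX were chosen after their values were seen. The slope of PTGS1 was 0.12 with all pigs and 0.21 without these 3.

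Leukocytes circulate in blood but also reside in fat, and most of their genes had a small positive correlation with HBB before group and sex were taken into account. Over 57 measured genes from 6 lists of leukocyte genes, 48 had an r above 0, and the median r was 0.19 (jackknife SE 0.16 over pigs), against 54.9% above 0 and a median of 0.02 over all other genes. With ALAS2 in place of HBB the median was also 0.19. After group and sex were taken out it was 0.04. Without the 3 highest pigs the median was 0.27. In the slope fit 0 of the 57 were called by limma, 0 rose with HBB at an unadjusted p below 0.05 (3.68% of all genes) and 4 fell (1.85% of all genes). Without the 3 highest pigs 1 of the 57 rose at this level, STAB1 (4.85% of all genes), and 0 fell (2.74% of all genes).

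Before group and sex were taken out, the myeloid lists lay above the median of all genes. All 16 macrophage genes had an r above 0, with a median of 0.24 and a range of 0.10 to 0.36. STAB1, a scavenger receptor, was highest with 0.359, followed by the scavenger receptor MSR1 with 0.300, and SIGLEC1 was lowest with 0.104. CD68, a lysosomal macrophage protein, had 0.213, SPI1, the transcription factor PU.1, had 0.241, and FCER1G, a signalling adaptor of Fc receptors, had 0.201. Neutrophils are mainly cells of the blood, and 9 of their 10 measured genes had an r above 0 with a median of 0.19. The G-CSF receptor CSF3R had the highest with 0.373, and the protease gene ELANE was lowest with -0.12. The 4 blood monocyte genes had a median of 0.20, with CD14 at 0.225 and VCAN at 0.02. After group and sex were taken out, the median was 0.08 for macrophage, 0.06 for neutrophil and 0.09 for blood monocyte genes. Over all other genes it was then 0.02. In the same order the list medians were 0.40, 0.34 and 0.30 among lean pigs alone. Among intermediate pigs they were 0.02, -0.01 and 0.04, and among obese pigs -0.16, -0.04 and -0.04. None of these genes was called on HBB, and the slope of CSF3R was 0.20 (SE 0.13, adjusted p = 0.884 by limma).

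Genes shared by most leukocytes had a median r of 0.22, with 15 of 15 above 0. EVI2B had 0.308 and LCP1, which bundles actin, 0.297, and the lowest was CYTIP with 0.06. PTPRC, or CD45, the surface phosphatase of leukocytes, had 0.101 (slope -0.07, SE 0.07, adjusted p = 0.932 by limma), PTPN6, or SHP-1, 0.148, and the adaptor DOK2 0.178. The highest of the 57 correlations, that of CSF3R, was far below the 0.970 of ALAS2. After group and sex were taken out, the median of the 15 genes shared by most leukocytes was 0.05. It was 0.41 among lean, 0.03 among intermediate and -0.23 among obese pigs alone.

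Among T and NK lymphocyte genes the sign of the median correlation with HBB, before group and sex were taken out, depended on the 3 highest pigs. Their median slope on HBB, with group and sex as terms, was negative with and without these pigs. Over all pigs, 2 of their 9 genes had an r above 0 and the median was -0.05, and after group and sex were taken out it was -0.33. PRF1, or perforin, fell by 0.27 log2 units per log2 unit of HBB at an unadjusted p of 0.0053 by limma (SE 0.09, adjusted p = 0.874), and the adhesion receptor CD2 fell by 0.26 at an unadjusted p of 0.0107 by limma (SE 0.10, adjusted p = 0.874). CCL5 and TBX21 were the other 2 of the 4 genes at this level, named after their values were seen. Without lean pig 6 and obese pigs 5 and 10, 0 of the 9 reached an unadjusted p below 0.05 by limma, and their median slope moved from -0.18 to -0.11. Without these 3 pigs 7 of the 9 had an r above 0, and the median r was 0.04. The 3 B lymphocyte and plasma cell genes had a median of 0.08, with CD22 at 0.156 and XBP1 at -0.29.

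Within the groups the leukocyte correlations took different values. The median r of the 57 genes with HBB was 0.36 among lean, 0.05 among intermediate and -0.20 among obese pigs. It was 0.26 among males and -0.08 among females. The same medians over all other genes were 0.11, 0.08, -0.09, 0.04 and -0.01. With 12 pigs in a group single pigs weigh heavily, and the differences between the groups and between the sexes were not tested. HBB and ALAS2 themselves had an r of 0.955 to 0.988 across these sets of pigs.

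**Figure D4:**
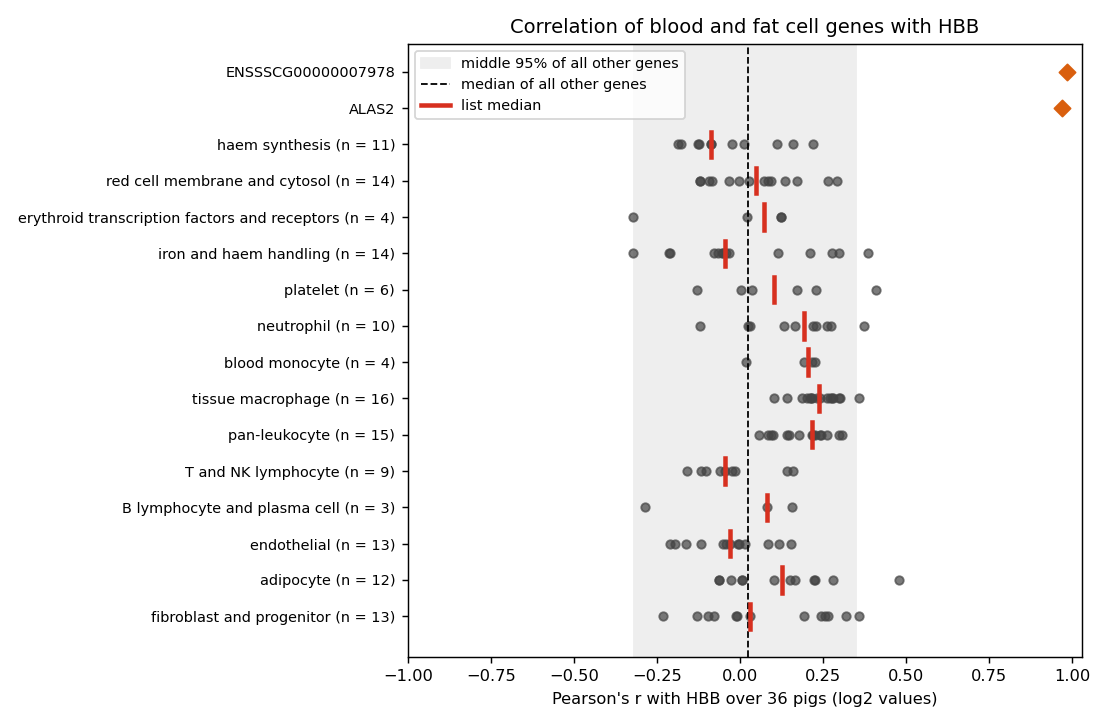
Pearson's r with HBB over 36 pigs (horizontal axis) for ENSSSCG00000007978 and ALAS2 (diamonds) and for the measured genes of 14 lists (points, with the list median as a red bar), against the median (dashed) and the middle 95% (grey) of all other genes. ALAS2 and ENSSSCG00000007978 lie at 0.970 and 0.984, while the medians of the leukocyte lists lie between -0.05 and 0.24.

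Cells of the fat and its vessels were also set against HBB. The 13 endothelial genes had a median r of -0.03, with ROBO4 at 0.154 and ENG, or endoglin, at -0.21, and 4 of 13 were above 0. Without the 3 highest pigs their median was -0.19 with 0 of 13 above 0, and 1 of them, ENG, had a lower level with HBB at an unadjusted p of 0.0241 by limma (2.74% of all genes at an unadjusted p below 0.05). The 12 adipocyte genes had a median of 0.13, led by PLIN4, a lipid droplet coat protein, with 0.478 (slope 0.21, SE 0.08, adjusted p = 0.874 by limma), and PPARG, which drives adipocyte differentiation, was lowest with -0.06. The 13 fibroblast and progenitor genes had a median of 0.03, with PI16 at 0.360, FBN1, or fibrillin, at 0.321 and COL1A2 at -0.23. Of skeletal muscle 2 genes were measured (median -0.06) and of skin 2 (median -0.12), and pericyte and smooth muscle genes had a median of 0.10 over 9 genes. In these 6 lists 0 genes were called on HBB by limma, and 2 rose at an unadjusted p below 0.05, PLIN4 and FBN1, a share near the 3.68% of all genes. Without the 3 highest pigs the slope of PLIN4 moved from 0.21 to 0.34 and that of FBN1 from 0.24 to 0.41.

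The last comparison asked how far the leukocyte difference between obese and lean pigs moved when the HBB level of each pig was held in the fit. By the algebra of these fits, a gene moves by its HBB slope times the obese minus lean difference of HBB, which was 0.88. The moves therefore restate the HBB slopes and are not a separate result. The median difference of the 57 leukocyte genes was 0.78 without HBB and 0.75 with HBB as a further term, and 0.75 with ALAS2 as the term, while the median of all other genes was -0.01 each time. The number of leukocyte genes with a higher estimate in obese pigs was 54 of 57 in both fits. Among all other genes it was 5816 of 12251 without the HBB term and 5745 with it. At an unadjusted p below 0.05 by limma, 40 of the 57 leukocyte genes were higher without the term (6.82% of all genes) and 43 with it (6.73% of all genes), and after adjustment 0 of 57 were called in either fit. Over all genes, 5 were called without and 12 with the HBB term. Endothelial genes had the opposite sign, with 1 of 13 higher in obese pigs and a median difference of -0.30 with and without the HBB term. Of these, RASIP1 had a difference of -0.51 (SE 0.11, adjusted p = 0.0515 by limma) without and -0.53 (SE 0.11, adjusted p = 0.0422 by limma) with the term, and was chosen after its values were seen. The part of these cell types in the leukocyte difference was not tested.

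Single genes moved in both directions, each against the sign of its HBB slope. PTPRC had normalized counts of 334 ± 173 in lean and 649 ± 342 in obese pigs (SD, n = 12 each), and its difference of 0.88 (SE 0.24, adjusted p = 0.077 by limma) became 0.94 with the HBB term (SE 0.25, adjusted p = 0.0914 by limma). CD68 moved from 0.74 to 0.72, SPI1 from 0.83 to 0.80 and FCER1G from 0.82 to 0.81. PTPN6 moved from 0.65 to 0.67 and DOK2 from 0.83 to 0.84. Among genes that moved down, CSF3R went from 1.67 to 1.49, S100A4 from 0.81 to 0.67, MSR1 from 1.55 to 1.43 and STAB1 from 0.55 to 0.47. PRF1 moved up from 0.45 to 0.68 and CD2 from 0.61 to 0.84. Without the 3 highest pigs the median of the 57 genes was 0.79 without and 0.75 with the HBB term.

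**Figure D5:**
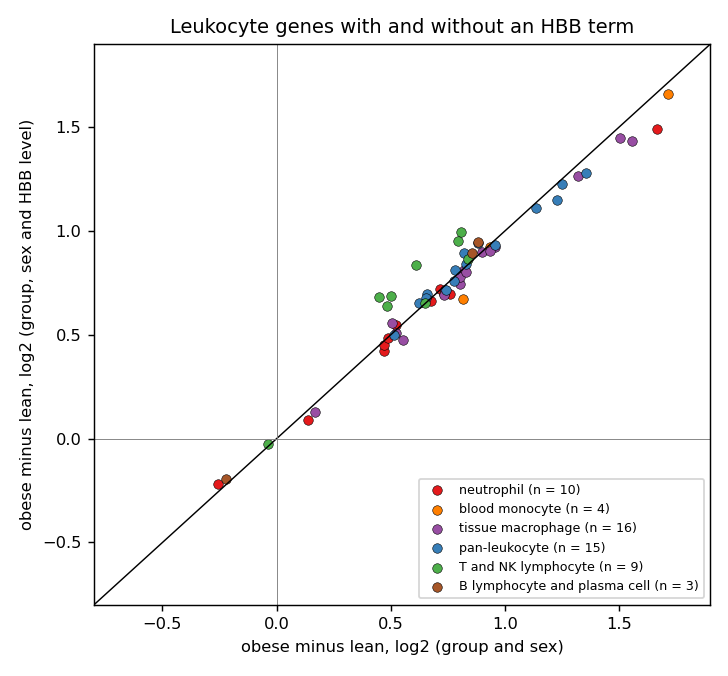
Obese minus lean log2 differences of 57 leukocyte genes from limma with group and sex as terms (horizontal axis) and with the HBB log2 value as a further term (vertical axis), coloured by list, with the line of equal values. Points lie along the line (medians 0.78 and 0.75), with the T and NK lymphocyte genes on or above it. The distance of a point from the line follows from the HBB slope of that gene.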

How the data were processed

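Per the labels and the study's methods, the authors aligned paired-end reads with STAR to Sscrofa10.2, obtained gene counts from HTSeq, dropped weakly expressed genes and normalized with DESeq size factors and voom (limma). The deposited values are log2 values, which lie on the steps of log2 of the reads plus 0.5, divided by the size factor plus 1 and multiplied by a constant. The study's methods describe a correction for gender at the voom step, but the deposited values lie on whole-read steps, which residuals of a sex term would not, and 268 genes differed between the sexes by limma. Sex was a term in the fits. Whole reads were recovered from the deposited values, and in the column with the lowest share 99.9% of them fell within 0.1 of a whole read. Because 1 is added to a size factor of 0.796 to 1.18, the deposited values correct depth only in part, and division by the whole size factor was an alternative chosen after seeing the data. Gene symbols were found for 8320 of 12253 identifiers.

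Tests used limma 3.58.1 in R 4.3.3 with an intensity trend on the deposited log2 values of all 36 pigs, with terms for group and sex, and Benjamini-Hochberg adjustment over all genes at 0.05. Slopes used the HBB or ALAS2 log2 value as a further term. Correlations and permutations (100000, two-sided) were computed in Python 3.11.15 with scipy 1.17.1. On simulated data with 200 changed genes, limma recovered 178 of those changed by 1 (log2) between obese and lean pigs among 12253 genes (11 false calls), and 198 with an HBB slope of 0.5 among 12252 genes (11 false calls). The changed genes were drawn from the whole table, with a median SD of 0.34, and the noise was independent between genes. HBB and ALAS2 had residual SDs of 1.58 and 1.42. The recoveries therefore do not give the sensitivity for these 2 genes or for slopes below 0.5.

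The members and lists were chosen with earlier results of these data known. Named besides HBB and ALAS2 were genes of the globin, haem synthesis, red-cell and erythroid lists, the 2 highest and 2 lowest correlations with HBB of every other list, the 10 genes most like and 5 most unlike each member, and 7 leukocyte genes taken from the study's text or lists, of which BCL2A1 was not matched. Some genes that this rule names are not reported here. S100A4 was in the blood monocyte and the fibroblast lists. Alternatives were no intensity trend, a table without the genes in the lowest 25% by mean, centring on each pig's median, voom weights on recovered reads, no sex term, fits of 2 groups alone, Spearman's correlation and leaving out pigs. Sequencing lanes and litters are not given per pig, and no coordinates or sequences were used.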

Additional observations from a re-analysis of the deposited data

How the results depend on the processing

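No group or sex difference of HBB or ALAS2 passed the threshold in any setting run. With each pig left out in turn, the intermediate minus lean difference ranged from -0.10 to 0.46 for HBB and from -0.0455 to 0.506 for ALAS2, and thus changed sign. The other ranges kept their sign, at 0.55 to 1.22 and 0.43 to 1.07 for obese minus lean, 0.45 to 0.97 and 0.27 to 0.78 for obese minus intermediate, -1.08 to -0.62 and -0.85 to -0.41 for males minus females, and 0.64 to 1.91 and 0.34 to 1.61 for the difference between the sexes in the obese minus lean contrast (HBB first, ALAS2 second). Without obese pigs 5 and 10, the ALAS2 difference between obese and intermediate pigs turned to -0.0256. Removal of the lowest 25% of genes took ALAS2 out of the table, so that 1 gene was called on HBB, and gave no value for the differences of ALAS2. The number of genes called was 2 to 3 on HBB and 2 to 3 on ALAS2 with a pig left out, with the third gene on HBB appearing without intermediate pig 9, obese pig 3 or obese pig 6. The correlation of HBB with ALAS2 lay between 0.948 and 0.988 in all settings. The median correlation of leukocyte genes with HBB lay between 0.04, for residuals after group and sex, and 0.27 in the settings with all groups and both sexes, but was -0.08 in females, -0.20 in obese and 0.36 in lean pigs alone, and their median obese minus lean difference with the HBB term between 0.72 and 0.76. No paired analysis was possible because the labels give the pigs no shared replicate numbers. Depth limits ALAS2, with 8 reads in the lowest pig.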
